A study of Saccharomyces cerevisiae with 9 samples.

Results

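Iron-limited yeast cells carrying CTH2 on a plasmid were compared with cells carrying the empty plasmid, on 3 arrays of each kind out of the 9 arrays in the series. The arrays were chosen by their titles, and the difference was read over the 4537 genes of Saccharomyces cerevisiae that were bright enough to test. Cells of the CTH2 group were cth1cth2 cells transformed with pRS416-CTH2, and cells of the vector group were the same strain with pRS416 and no insert. The chromosomal CTH1 and CTH2 genes were thus missing from every group, the vector cells had neither protein, and the remaining 3 arrays, with pRS416-CTH1, entered the model to estimate the spread. All cultures grew at 30 °C for about 6 hours, to the exponential phase, in synthetic medium without uracil, to which bathophenanthroline disulfonate (BPS), a chelator that binds iron, had been added at 100 µM. The sources used here do not name the promoter of the plasmid-borne gene, there was no iron-replete culture, and it is not stated whether each replicate came from its own transformant. What the p-values measure is thus the spread among these 6 cultures and those with CTH1, which may be partly technical.

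Cth2 and its relative Cth1 belong to the tandem zinc-finger family of RNA-binding proteins, like tristetraprolin in mammals. They attach to AU-rich elements in the 3′ untranslated regions of messenger RNAs and bring about decay of those messengers. The transcription factors Aft1 and Aft2 switch on CTH2 together with the iron uptake genes when iron runs short. The known outcome is less messenger for pathways that consume much iron, among them the tricarboxylic acid cycle, the respiratory chain and heme synthesis. Total RNA on an array does not tell slower synthesis from faster decay, nor a direct target from an indirect one, nor a lower level in every cell from fewer cells with the messenger.

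CTH2, which the annotation lists as TIS11, had signals of 3801, 3389 and 4498 in the CTH2 arrays, against 0.878, 5.9 and 5.56 in the vector arrays. The vector signals all lay under the floor of 43.2 applied before taking logarithms, so CTH2 messenger was at least 89.6-fold higher in CTH2 cells. CTH1 had 1.54, 3.2 and 14.3 in the CTH2 arrays and 0.583, 0.854 and 1.21 in the vector arrays, too dim for testing in both. URA3, the gene that selects for the plasmid in medium without uracil, had 3131, 2949 and 3829 in the CTH2 arrays and 4076, 3533 and 4237 in the vector arrays, and those ranges overlapped. The labels therefore matched the plasmid-borne genes on all 6 arrays.

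The authors' scaling left median signals of 153 to 184 over the 9 arrays. Pearson correlations over the tested genes were 0.944 to 0.983 among the CTH2 arrays, 0.951 to 0.963 among the vector arrays and 0.933 to 0.968 between the groups. CTH2 replicate 3 stood apart from the other arrays on the second principal component, which held 28.6% of the variance. For actin, the ratio of 3′ to 5′ probe sets, which follows RNA integrity, was 1.33 ± 0.107 with CTH2 and 1.35 ± 0.255 with the vector (SD, n = 3 each; exact two-sided permutation test, p = 0.9). A control probe set for 25S ribosomal RNA had signals of 367, 1010 and 617 in the CTH2 arrays and 3349, 4649 and 3457 in the vector arrays, which did not overlap (exact permutation test, p = 0.1, the smallest value that 3 against 3 arrays allow). It was 1 of 10 control probe sets for ribosomal RNA, of which 3 were lower in CTH2 arrays without overlap, this set and 2 for 18S, while the other 7 overlapped. Their part in the results below was not tested.

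Differences are given as CTH2 minus vector on the log2 scale, so that -1 is a halving, with the standard error (SE) from limma. A gene was called at a limma adjusted p under 0.05 after Benjamini-Hochberg adjustment over all tested genes, and a gene is described as separate when its 3 CTH2 arrays all lay on the same side of its 3 vector arrays. The median difference of all tested genes was 0.07, with 1857 genes below 0 and 2680 above, and from the 10th to the 90th percentile the differences ran from -0.34 to 0.49. The upward shift was larger in dim genes: with the genes ordered by level and cut into 4 equal classes, the median difference was 0.17 in the dimmest class, 0.10 and 0.05 in the middle classes, and -0.03 in the brightest. With quantile normalization it was at most 0.01 in each class. Scaling each array to its median moved the median of all genes to -0.06, so a list median is best read against the median of all genes. Differences this close to 0 change sign with the scaling or with 1 array left out, and their sign is not read as a direction. At least 2-fold differences were found for 29 genes higher in CTH2 cells and 26 lower, of which 24 and 25 were separate.

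**Figure D1:**
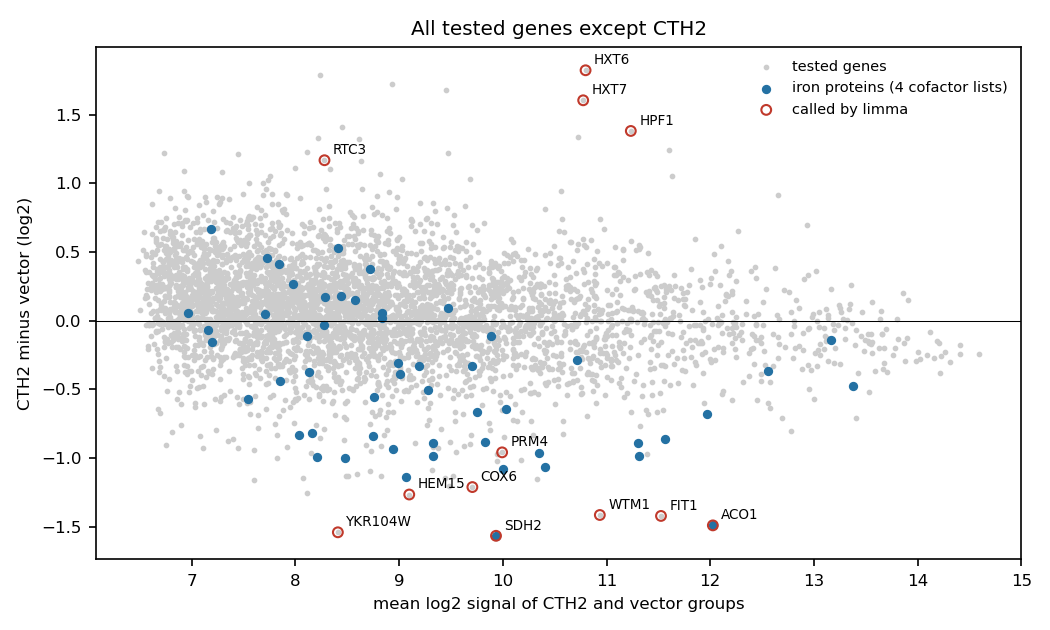
Each point is 1 tested gene, with the mean log2 signal of the CTH2 and vector groups on the horizontal axis and the difference CTH2 minus vector (log2) on the vertical axis; CTH2 itself, at 6.49, is left out. The iron proteins of 4 cofactor lists are blue, and 39 of the 53 lie below 0; the 12 circled genes were called.

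In all, 13 genes were called. CTH2 itself and 4 others were higher, which is 0.11% of the genes tested, and 8 were lower, which is 0.176%. The 8 lowered genes include aconitase, a succinate dehydrogenase subunit, a cytochrome oxidase subunit and ferrochelatase, together with 4 genes outside respiration and heme. The raised genes other than CTH2 encode a pair of hexose transporters, a cell wall mannoprotein and a stress-induced protein. In the plot of called genes by array the arrays with and without CTH2 did not overlap for any of the 12.

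**Figure D2:**
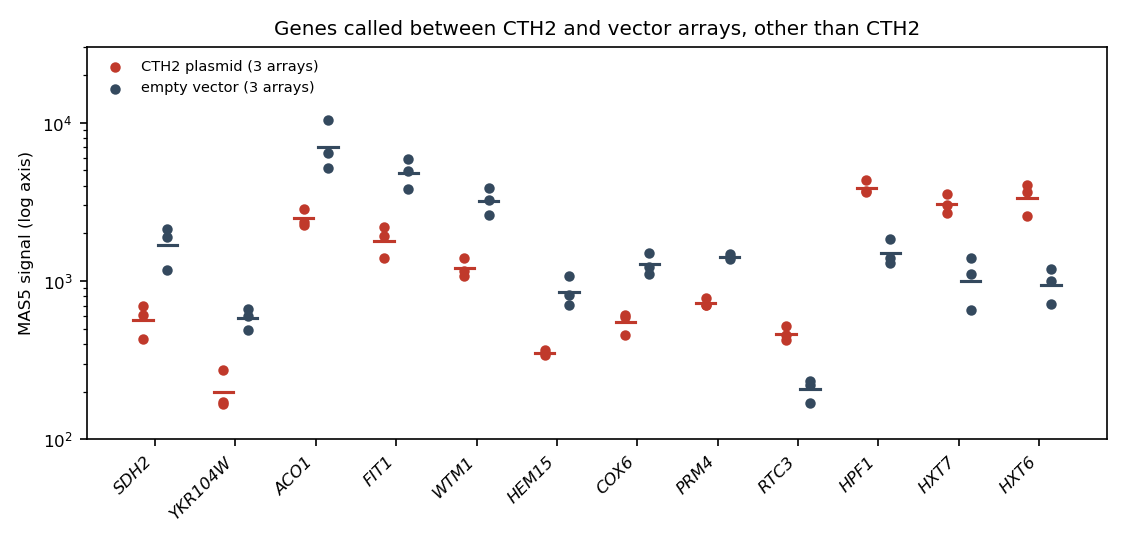
MAS5 signal (log axis) of the 12 called genes other than CTH2, with the 3 CTH2 arrays (red, left) and the 3 vector arrays (dark, right) as points and a bar at each group's geometric mean. Genes run from the most lowered, SDH2 at -1.57, to the most raised, HXT6 at 1.82, and the points of the groups do not overlap for any gene.

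SDH2, which holds the iron-sulfur clusters of succinate dehydrogenase, had signals of 699, 612 and 430 in CTH2 cells and 1177, 1903 and 2132 in vector cells. It fell 2.96-fold (log2 difference -1.57, SE 0.26, limma adjusted p = 0.0279). ACO1, the mitochondrial aconitase that carries a 4Fe-4S cluster, had 2367, 2271 and 2862 in CTH2 cells and 6384, 10371 and 5155 in vector cells. The lowest vector array still lay well above the highest CTH2 array, and ACO1 fell 2.81-fold (-1.49, SE 0.25, limma adjusted p = 0.0279). COX6, a nuclear-encoded subunit of cytochrome c oxidase that itself binds no iron, had 589, 612 and 459 in CTH2 cells and 1106, 1230 and 1510 in vector cells (-1.21, SE 0.20, limma adjusted p = 0.0279). HEM15, the ferrochelatase that inserts iron into protoporphyrin, had 342, 349 and 369 in CTH2 cells and 705, 1071 and 813 in vector cells. It fell 2.4-fold (-1.27, SE 0.21, limma adjusted p = 0.0279), and its CTH2 values were close to each other.

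The other 4 lowered genes have diverse roles. FIT1, a mannoprotein of the cell wall that retains iron-laden siderophores, had 2191, 1921 and 1387 in CTH2 cells and 4969, 5906 and 3828 in vector cells (-1.42, SE 0.26, limma adjusted p = 0.0413). WTM1, which holds the small subunits of ribonucleotide reductase in the nucleus, had 1395, 1156 and 1070 in CTH2 cells and 3249, 2622 and 3841 in vector cells (-1.42, SE 0.22, limma adjusted p = 0.0258). YKR104W, the second piece of an ABC transporter gene that is split from NFT1 by a stop codon in the reference strain, had 167, 172 and 276 in CTH2 cells and 665, 599 and 490 in vector cells (-1.54, SE 0.24, limma adjusted p = 0.0258). All 6 probe sets for the adjoining NFT1 had lower means in CTH2 cells, with differences of -1.71 to -0.29, and NFT1 itself was not called (limma adjusted p = 0.142). PRM4, a pheromone-regulated gene, had 704, 710 and 781 in CTH2 cells and 1471, 1382 and 1411 in vector cells. With -0.96 (SE 0.17, limma adjusted p = 0.0413) it had the least change and the smallest SE of the called genes.

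Among the raised genes, HXT6 and HXT7 encode high-affinity glucose transporters, near-identical neighbours whose probe sets carry the suffix for shared sequence, so the pair cannot be told apart here. HXT6 had 3626, 2566 and 4034 in CTH2 cells and 1184, 998 and 718 in vector cells (1.82, SE 0.28, limma adjusted p = 0.0258). HXT7 had 3013, 2673 and 3539 in CTH2 cells and 1400, 1104 and 657 in vector cells (1.60, SE 0.28, limma adjusted p = 0.0322). HPF1, a heavily glycosylated mannoprotein of the cell wall, had 3636, 3698 and 4369 in CTH2 cells and 1389, 1847 and 1298 in vector cells (1.38, SE 0.21, limma adjusted p = 0.0258). RTC3, a small protein induced under stress, had 425, 523 and 455 in CTH2 cells and 171, 222 and 235 in vector cells. It rose 2.25-fold (1.17, SE 0.21, limma adjusted p = 0.0413), and its highest vector array was well under its lowest CTH2 array.

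The calls rested on all 6 arrays. Leaving out vector replicate 2, vector replicate 3, CTH2 replicate 1 or CTH2 replicate 2 left CTH2 as the 1 call in each case. Without CTH2 replicate 3 there were 2 calls, CTH2 and YKR104W, and without vector replicate 1 there were 6, namely CTH2, HEM15, HXT6, HXT7, SDH2 and NDI1. Leaving out replicate 2 of the CTH1 group, which acts on the estimated spread alone, gave 26 calls. The sizes of the differences moved less than the calls: over all 19 alternatives ACO1 ran from -1.71 to -1.21 and SDH2 from -1.83 to -1.37.

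Against the arrays with the CTH1 plasmid the same genes were also set beside each other, with the same CTH2 arrays in both comparisons. Of the 13 called genes, 1 differed between CTH2 and CTH1 cells at a limma adjusted p under 0.05, CTH2 itself. SDH2 had 812, 639 and 709 in CTH1 cells, close to its level with CTH2, and the difference CTH2 minus CTH1 was -0.33 (SE 0.26, limma adjusted p = 0.896). YKR104W had 479, 507 and 537 in CTH1 cells, and FIT1 had 3345, 4776 and 5885. Their CTH2 minus CTH1 differences of -1.35 (SE 0.24, limma adjusted p = 0.125) and -1.34 (SE 0.26, limma adjusted p = 0.144) did not pass, although no array of either gene overlapped. PRM4 came nearest, with 1685, 1417 and 1529 in CTH1 cells and a difference of -1.07 (SE 0.17, limma adjusted p = 0.0929).

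Behind the called genes stood 20 genes each way that came next in order of p with separate arrays. Together with the calls other than CTH2 they make 28 lower and 24 higher genes. Of the 28 lower genes, 10 belong to the lists of iron proteins, iron cofactor synthesis, iron transport and iron sensing, 9 to the lists for the tricarboxylic acid cycle, respiratory chain, cytochrome oxidase assembly and ATP synthase, and 16 to at least 1 of both kinds. None of the 24 higher genes belongs to any of these lists. Of the higher genes, 10 belong to the lists for hexose transport, glycolysis, glycogen with trehalose, the pentose phosphate pathway or general stress, and none of the 28 lower genes does. The share of all tested genes that sits in these lists is not given here, so these memberships have no background to be read against. The lists are described below by their counts, for which the share among all tested genes is 6.99% separate and lower and 9.48% separate and higher.

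Iron proteins were grouped by cofactor and compartment. Over the 4 cofactor lists, 53 of 61 proteins were tested, 25 were separate and lower, 2 were separate and higher, and the median difference was -0.39, against 0.07 for all tested genes. SDH2 and ACO1 were the 2 called. The lists differ among themselves, as the plot of iron genes by class shows, with the mitochondrial iron-sulfur enzymes furthest below 0.

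**Figure D3:**
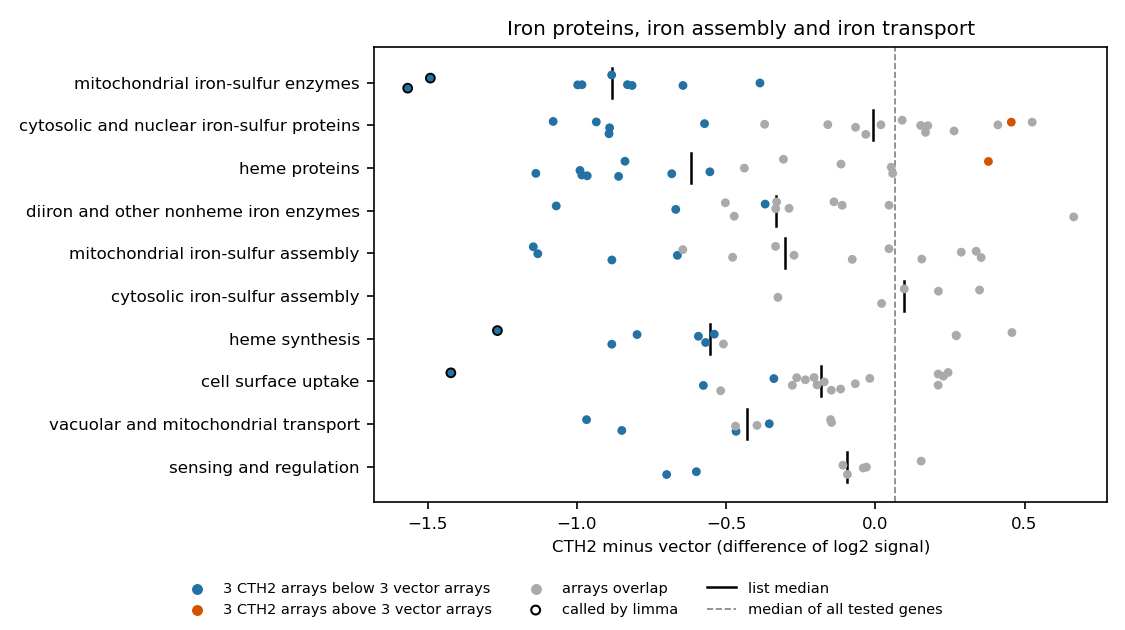
Each point is 1 tested gene of an iron list, placed by its difference CTH2 minus vector (log2); vertical jitter has no meaning, CTH2 (TIS11) is left out of the sensing and regulation list and of its median here, black bars are list medians and the dashed line is the median of all tested genes, 0.07. All 9 mitochondrial iron-sulfur enzymes lie at -0.39 or lower and are blue, whereas the cytosolic and nuclear iron-sulfur proteins lie on both sides of 0.

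All 9 tested mitochondrial iron-sulfur enzymes were separate and lower, with a median of -0.88 and a range of -1.57 to -0.39. The same 9 were separate and lower with median scaling and with quantile normalization. SDH2 and ACO1 passed the test and the other 7 did not. All 9 also had lower means in CTH1 cells than in vector cells, from -1.23 for SDH2 to -0.32 for BIO2 (log2, not tested). ILV3, the dihydroxyacid dehydratase of valine, isoleucine and leucine synthesis, had 2317, 1673 and 1538 in CTH2 cells and 3758, 3289 and 3723 in vector cells (-0.98, SE 0.23, limma adjusted p = 0.121). CIR2, the yeast relative of the electron-transferring flavoprotein dehydrogenase, had 290, 277 and 199 in CTH2 cells and 541, 397 and 591 in vector cells (log2 difference -0.997, SE 0.25, limma adjusted p = 0.142). Neither gene's arrays overlapped. RIP1, the Rieske iron-sulfur subunit of the cytochrome bc1 complex, had 652, 576 and 794 in CTH2 cells and 1232, 1307 and 1160 in vector cells (-0.88, SE 0.25, limma adjusted p = 0.186). LIP5, the lipoate synthase, had a difference of -0.83, LYS4, the homoaconitase of lysine synthesis, -0.81, YAH1, the mitochondrial ferredoxin, -0.64, and BIO2, the biotin synthase, -0.39. ILV3, LYS4 and BIO2 serve amino acid and vitamin synthesis and not respiration.

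The 18 tested iron-sulfur proteins of the cytosol and nucleus had a median of -0.01, and none was called. Of these, 5 were separate and lower, 1 was separate and higher, and 9 lay on each side of 0. RLI1, an ABC protein that recycles ribosomes, had 603, 690 and 847 in CTH2 cells and 1360, 1756 and 1391 in vector cells (-1.08, SE 0.23, limma adjusted p = 0.0908). GLT1, the glutamate synthase, had 360, 524 and 553 in CTH2 cells and 865, 1025 and 750 in vector cells (-0.89, SE 0.24, limma adjusted p = 0.175). Both had separate arrays and missed the threshold. LEU1, isopropylmalate isomerase in leucine synthesis, stood at -0.89, DPH2, of diphthamide synthesis, at -0.93 and ELP3, the catalytic subunit of Elongator, at -0.57, each with separate arrays. DNA2, a replication nuclease and helicase, was the 1 separate and higher, with 246, 254 and 244 in CTH2 cells and 192, 154 and 200 in vector cells (0.46, SE 0.26, limma adjusted p = 0.61). Other replication and repair enzymes with a cluster lay near 0, such as POL2 at 0.02, NTG2 at 0.09, CHL1 at -0.07 and RAD3 at -0.16. A test of the difference between the mitochondrial and the cytosolic list was not made.

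Heme proteins had a median of -0.62 over 14 tested members, with 8 separate and lower, 1 separate and higher, and none called. HMX1, the heme oxygenase that releases iron from heme, had 2399, 1792 and 2656 in CTH2 cells and 3474, 4653 and 4227 in vector cells (-0.86, SE 0.20, limma adjusted p = 0.122). CYT1, cytochrome c1, had 220, 202 and 206 in CTH2 cells and 442, 380 and 427 in vector cells (-0.99, SE 0.24, limma adjusted p = 0.135). These groups did not overlap. The membrane anchors of succinate dehydrogenase, SDH3 at -0.98 and SDH4 at -0.97, the cytochrome c peroxidase CCP1 at -1.14 and the major cytochrome c isoform CYC1 at -0.55 were separate and lower as well. So were a pair of proteins of sterol synthesis in the endoplasmic reticulum, the P450 enzyme ERG11 at -0.68 and its heme-binding partner DAP1 at -0.84. ERG5, the other P450 of the pathway, was separate on the opposite side, with 417, 440 and 610 in CTH2 cells and 398, 328 and 389 in vector cells (0.38, SE 0.21, limma adjusted p = 0.607), though not with median or quantile scaling. CYB2, the lactate dehydrogenase, at 0.05, CYB5 at 0.06 and the flavohemoglobin YHB1 at -0.11 had overlapping arrays.

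Of 12 diiron and other nonheme iron enzymes, 3 were separate and lower, none was higher or called, and the median was -0.33. SCS7, the hydroxylase of sphingolipid fatty acids, had 919, 785 and 1146 in CTH2 cells and 1939, 2032 and 1938 in vector cells (-1.07, SE 0.21, limma adjusted p = 0.0705). RNR2, the small subunit of ribonucleotide reductase that holds the diiron centre, had 731, 547 and 793 in CTH2 cells and 1009, 1145 and 1103 in vector cells (-0.67, SE 0.21, limma adjusted p = 0.275). OLE1, the fatty acid desaturase, had a difference of -0.37. All 3 had separate arrays, whereas ERG25 at -0.14, ERG3 at -0.47 and SUR2 at -0.33, other oxygenases of lipid synthesis, overlapped, and CAT5, a hydroxylase of ubiquinone synthesis, stood at 0.66 with overlapping arrays.

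The ribonucleotide reductase list holds the enzyme and its regulators, and 5 of its 8 tested members were separate and lower, with a median of -0.46. WTM1 was the called member. RNR4, the partner of RNR2 in the small subunit that carries no iron itself, had 2229, 2065 and 2099 in CTH2 cells and 3426, 2746 and 4209 in vector cells (-0.68, SE 0.19, limma adjusted p = 0.189). RNR1, the large subunit, had 1706, 2283 and 2397 in CTH2 cells and 2988, 2973 and 2631 in vector cells (-0.44, SE 0.21, limma adjusted p = 0.548). Arrays of both genes were separate.

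The machinery that builds iron cofactors had lower values in part. HEM15 was the call among 10 tested genes of heme synthesis, of which 6 were separate and lower and the median was -0.55. HEM1, which makes the first precursor, 5-aminolevulinate, had 507, 530 and 558 in CTH2 cells and 978, 1097 and 875 in vector cells (-0.88, SE 0.22, limma adjusted p = 0.135). HEM4 at -0.59, HEM13 at -0.80, and COX10 and COX15, which convert heme b to heme a, at -0.57 and -0.54 were separate too. HEM2 at 0.27 and HEM12 at 0.46 overlapped.

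Of 14 tested genes of mitochondrial iron-sulfur assembly, 4 were separate and lower, the median was -0.30 and none was called. NFU1, a late-acting factor, had 227, 225 and 116 in CTH2 cells and 273, 513 and 459 in vector cells (-1.15, SE 0.31, limma adjusted p = 0.186). ISA1, needed for 4Fe-4S clusters, had 336, 303 and 384 in CTH2 cells and 560, 584 and 475 in vector cells (-0.66, SE 0.20, limma adjusted p = 0.229). BOL3 at -1.13 and the glutaredoxin GRX5 at -0.88 were the others. The core of the pathway overlapped between groups, with the scaffold ISU1 at -0.48, the desulfurase NFS1 at -0.33, frataxin YFH1 at -0.64 and the exporter ATM1 at 0.16. Of the 5 tested genes of cytosolic assembly none was separate, and their median of 0.10 turned to -0.02 with median scaling and -0.09 with quantile normalization.

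FIT1 was the 1 gene called among 18 tested genes of iron uptake at the cell surface, a process that Aft1 turns on. Of the 18, 14 lay below 0, 3 were separate and lower, none was separate and higher, and the median was -0.18. ENB1, the enterobactin transporter, had 3787, 3546 and 4384 in CTH2 cells and 4749, 6698 and 6132 in vector cells (-0.58, SE 0.19, limma adjusted p = 0.313). FRE1, a surface reductase of iron and copper, stood at -0.34 with separate arrays. The multicopper oxidase FET3 at -0.17 and its permease FTR1 at -0.26 overlapped, as did the mannoproteins FIT2 at -0.21 and FIT3 at -0.15 and the siderophore transporters ARN1 at -0.02, ARN2 at -0.20 and SIT1 at 0.24. Among regulators, AFT1 at -0.09, AFT2 at -0.03 and YAP5 at -0.11 overlapped, whereas FRA1, which passes the mitochondrial iron signal to Aft1, at -0.70 and the glutaredoxin GRX4 at -0.60 were separate and lower.

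All 8 transporters of the vacuole and mitochondrion had differences below 0, with a median of -0.43, and 4 were separate. MRS4, which carries iron into mitochondria, had 829, 819 and 663 in CTH2 cells and 1227, 1313 and 1634 in vector cells (-0.85, SE 0.21, limma adjusted p = 0.135). CCC1, which stores iron in the vacuole, had 219, 241 and 158 in CTH2 cells and 280, 474 and 469 in vector cells (-0.97, SE 0.26, limma adjusted p = 0.182). FTH1 and FET5, the permease and oxidase that bring iron back out of the vacuole, were at -0.47 and -0.36. Thus genes for filling the vacuole and for emptying it both had lower values with CTH2, and none of the 8 was called.

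Lower values extended to parts of respiration that carry no iron. The list for the respiratory chain was not limited to subunits without iron. Of its 22 tested subunits 17 were separate and lower, and the median was -0.86. COX6 was the called subunit. QCR7, a subunit of the bc1 complex without a cofactor, had 1887, 1865 and 1999 in CTH2 cells and 3487, 3716 and 4070 in vector cells (-0.97, SE 0.20, limma adjusted p = 0.0774). COX4, a zinc-binding subunit of cytochrome oxidase, had 569, 639 and 594 in CTH2 cells and 1075, 997 and 1314 in vector cells (-0.90, SE 0.19, limma adjusted p = 0.082). NDI1, the flavin-containing NADH dehydrogenase that has no iron, had 232, 237 and 262 in CTH2 cells and 340, 634 and 698 in vector cells (-1.13, SE 0.27, limma adjusted p = 0.124). Their groups did not overlap. The count takes QCR8 by its brighter probe set, at -0.83, while its other probe set stood at 0.00.

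COX5A and COX5B, alternative forms of 1 cytochrome oxidase subunit, lay on opposite sides. COX5A, the form used with oxygen, had 482, 463 and 330 in CTH2 cells and 693, 890 and 758 in vector cells (-0.89, SE 0.23, limma adjusted p = 0.147). COX5B, the low-oxygen form, had 483, 611 and 622 in CTH2 cells and 356, 264 and 348 in vector cells (0.83, SE 0.22, limma adjusted p = 0.181) and was the 1 subunit of the chain that was separate and higher. Neither passed the test, and the pair is also listed among the low-oxygen genes, of which 5 of 18 were separate and lower.

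In the tricarboxylic acid cycle 8 of 15 tested genes were separate and lower, none was higher, and the median was -0.29. That count includes SDH2, ACO1, SDH3 and SDH4, which are also in the iron lists. KGD1, a subunit of 2-oxoglutarate dehydrogenase that binds thiamine diphosphate, had 892, 816 and 739 in CTH2 cells and 1691, 1680 and 1563 in vector cells (-1.02, SE 0.19, limma adjusted p = 0.0556). SDH1, the flavoprotein of succinate dehydrogenase, had 239, 198 and 314 in CTH2 cells and 365, 727 and 584 in vector cells (-1.13, SE 0.28, limma adjusted p = 0.135). With SDH2, SDH3 and SDH4 this makes all 4 subunits of the complex separate and lower. ATP synthase, which has no iron, had 5 of 17 tested genes separate and lower and a median of -0.27, and the member with the smallest p, ATP3, had 4294, 4596 and 4843 in CTH2 cells and 5633, 7487 and 7580 in vector cells (-0.58, SE 0.20, limma adjusted p = 0.341).

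The medians of other parts of the mitochondrion stayed nearer that of all genes. Cytochrome oxidase assembly had a median of -0.10, yet 5 of 16 tested genes were separate and lower and none higher. The mitochondrial ribosome had a median of -0.08 over 66 tested genes, with 4 separate and lower and 1 higher. Protein import had a median of -0.02 over 30 genes, with 5 separate and lower, 16.7% against 6.99% of all tested genes, and 1 higher. The inner membrane carriers had 0.07 over 22, with 2 separate and lower and 1 higher. The respiratory regulators had none separate among 9, and HAP4, the activating subunit of the Hap complex, had 91, 95 and 135 in CTH2 cells and 146, 227 and 131 in vector cells (-0.63, SE 0.26, limma adjusted p = 0.49), which overlapped at 1 vector array. SOD2, the manganese superoxide dismutase of the matrix, had 978, 883 and 1028 in CTH2 cells and 1735, 1486 and 1565 in vector cells (-0.73, SE 0.19, limma adjusted p = 0.174), with separate arrays.

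Higher values were seen in stored carbohydrate, sugar uptake and stress. Of 15 tested genes of glycogen and trehalose, 7 were separate and higher, none was lower, and the median was 0.30, though none was called. GPH1, glycogen phosphorylase, had 612, 622 and 462 in CTH2 cells and 165, 167 and 154 in vector cells (1.79, SE 0.36, limma adjusted p = 0.0705). GSY1, a glycogen synthase, had 278, 258 and 260 in CTH2 cells and 137, 134 and 81 in vector cells (1.21, SE 0.25, limma adjusted p = 0.0774). The enzymes that break glycogen down and that build it were thus both higher in value, and their arrays did not overlap. PGM2, a phosphoglucomutase, stood at 0.94 and GLC3, the branching enzyme, at 0.65. With median scaling 3 of the 15 were separate and higher and 1 lower, and with quantile normalization 5 and none.

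Sugar entry held called genes. In the hexose transport list 4 of 11 tested genes were separate and higher, 2 of them the called HXT6 and HXT7, whose probe sets share sequence. With median scaling 2 of the 11 were separate and higher and 2 lower, and with quantile normalization 2 and 1. HXT1, the low-affinity transporter used at high glucose, had 1817, 1581 and 1288 in CTH2 cells and 2097, 2493 and 2474 in vector cells (-0.60, SE 0.20, limma adjusted p = 0.3), the opposite side. HXK1, a hexokinase that glucose represses, had 4357, 3904 and 5557 in CTH2 cells and 2423, 2084 and 2114 in vector cells (1.05, SE 0.20, limma adjusted p = 0.0628). It was separate, as was SOL4, a 6-phosphogluconolactonase, at 1.03. The 29 tested genes of glycolysis and fermentation had a median of 0.13 with 3 separate and higher and 1 lower, near the shares of all genes.

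General stress genes had 9 of 27 separate and higher, 1 lower and a median of 0.22, with RTC3 called. HSP12, a membrane-protecting small heat shock protein, had 8384, 7657 and 10646 in CTH2 cells and 4351, 5803 and 4073 in vector cells (0.91, SE 0.23, limma adjusted p = 0.142). OM45, a protein of the outer mitochondrial membrane, stood at 0.91 and MSC1 at 0.93, each separate. HSP31, a chaperone that detoxifies methylglyoxal and sits in no list used here, had 4913, 4240 and 5275 in CTH2 cells and 1494, 2247 and 2464 in vector cells (1.24, SE 0.27, limma adjusted p = 0.0908). The list mean against the vector mean was 0.12, 0.22 and 0.45 in the CTH2 arrays and -0.15, 0.20 and -0.04 in the vector arrays, so 1 vector array lay as high as a CTH2 array.

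The proteasome list held small positive differences. Of 34 tested genes, 28 lay above 0, 13 were separate and higher, none was lower, none was called and the median was 0.27. RPT6, an ATPase of the regulatory particle, had 2540, 2481 and 2447 in CTH2 cells and 1909, 1688 and 2115 in vector cells (0.39, SE 0.17, limma adjusted p = 0.507). PRE4, a core subunit, had 2398, 2083 and 2287 in CTH2 cells and 1855, 1709 and 1502 in vector cells (0.42, SE 0.19, limma adjusted p = 0.534). Separate and higher were 10 with quantile normalization and 3 with median scaling, under which 1 was lower and the median was 0.15. The mitotic cell cycle list had a similar median of 0.27 over 29 genes, with 4 separate and higher, led by the cyclin CLB1 at 0.71.

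**Figure D4:**
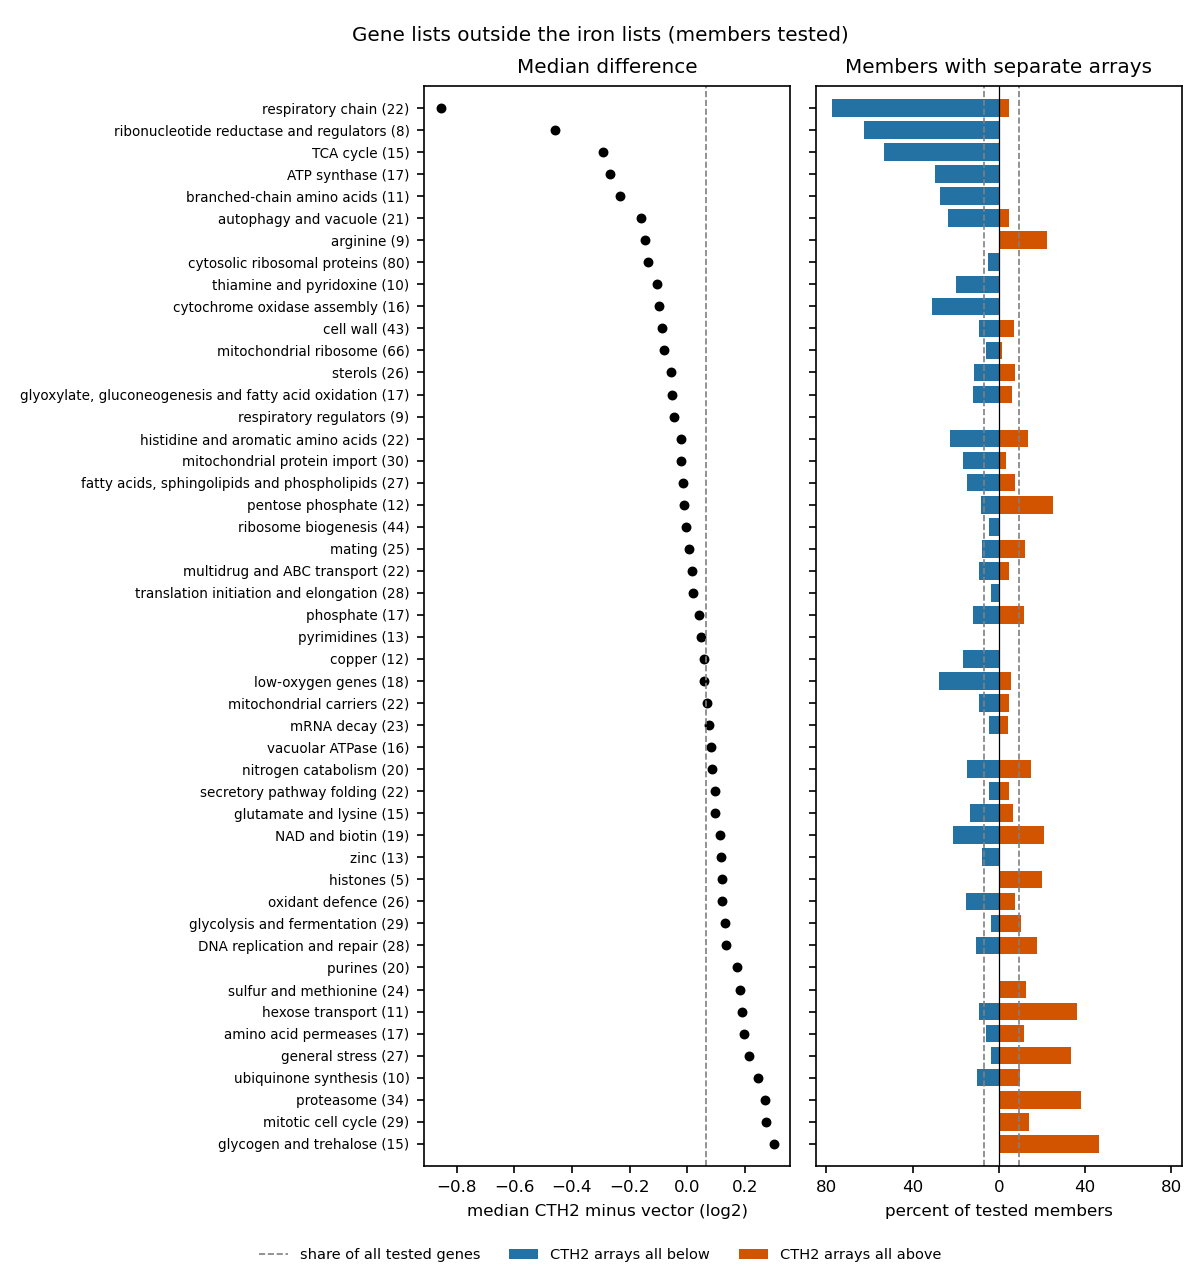
The 48 lists outside the iron lists, each with its number of tested members in brackets: at left the median difference CTH2 minus vector (log2), with the median of all tested genes dashed; at right the percent of tested members whose 3 CTH2 arrays lie all below (blue, to the left) or all above (orange, to the right) the 3 vector arrays, with the shares of all tested genes, 6.99% and 9.48%, dashed. The respiratory chain stands lowest at -0.86, and glycogen with trehalose highest at 0.30.

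Amino acid pathways divided by enzyme. The branched-chain list had 3 of 11 separate and lower, none higher and a median of -0.23; besides the iron-sulfur enzymes ILV3 and LEU1 it was LEU4, which opens the leucine branch, at -0.65. HIS3, of histidine synthesis, had 561, 499 and 366 in CTH2 cells and 827, 1021 and 1309 in vector cells (-1.14, SE 0.23, limma adjusted p = 0.0774), and its dimmer probe set had a difference of -0.48. HIS5 at 0.72 and HIS6 at 0.66, of the same pathway, were separate and higher, so the histidine genes did not share a direction. ARG1, argininosuccinate synthetase, had 999, 938 and 863 in CTH2 cells and 522, 640 and 569 in vector cells (0.70, SE 0.21, limma adjusted p = 0.241). The arginine list had 2 of 9 tested genes separate and higher and none lower, but 6 lay below 0 and the median was -0.15.

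In the sulfur and methionine list 3 of 24 were separate and higher and none lower. SAM2, which makes S-adenosylmethionine, had 1008, 1025 and 673 in CTH2 cells and 507, 252 and 152 in vector cells (1.72, SE 0.42, limma adjusted p = 0.135). CHO2, which uses that compound to methylate phosphatidylethanolamine, had 976, 829 and 793 in CTH2 cells and 641, 375 and 447 in vector cells (0.86, SE 0.23, limma adjusted p = 0.177). Both were separate, and both varied widely among the vector arrays.

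Vitamin and lipid genes also split. TNA1, the importer of nicotinic acid, had 1074, 897 and 1235 in CTH2 cells and 630, 626 and 708 in vector cells (0.70, SE 0.21, limma adjusted p = 0.241), and VHT1, the biotin importer, had 1102, 933 and 1044 in CTH2 cells and 1562, 1782 and 1148 in vector cells (-0.52, SE 0.20, limma adjusted p = 0.469). MCH5, the riboflavin importer, had 370, 488 and 462 in CTH2 cells and 893, 1255 and 717 in vector cells (-1.09, SE 0.26, limma adjusted p = 0.135). Each of these was separate. In the sterol list 3 of 26 were separate and lower, ERG11, ERG1 and ERG13, and 2 higher, with a median of -0.06. PIS1, phosphatidylinositol synthase, stood at -0.77 and was separate.

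The autophagy and vacuole list had 5 of 21 separate and lower, 1 higher and a median of -0.16. PEP4, the vacuolar protease A, had 6076, 5431 and 4551 in CTH2 cells and 8832, 9260 and 9820 in vector cells (-0.81, SE 0.18, limma adjusted p = 0.0927). ATG32, the receptor for autophagy of mitochondria, had 245, 313 and 277 in CTH2 cells and 427, 478 and 449 in vector cells (-0.70, SE 0.19, limma adjusted p = 0.186). ATG34, a cargo receptor, and APE4, an aminopeptidase that travels to the vacuole, had -1.09 and -0.95, with limma adjusted p of 0.082 and 0.122. SLA2, an adaptor of endocytosis, had 700, 675 and 695 in CTH2 cells and 1105, 1661 and 1490 in vector cells (-1.02, SE 0.20, limma adjusted p = 0.0628). All of these had separate arrays. The vacuolar ATPase had none of its 16 tested genes separate, with a median of 0.08.

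Genes of RNA and protein synthesis showed little separation. The mRNA decay list had 1 of 23 genes separate in each direction and a median of 0.08. Cytosolic ribosomal proteins had 4 of 80 separate and lower, none higher and a median of -0.14, which was 0.00 with quantile normalization, and 30 of the 80 were read by probe sets with shared sequence. Ribosome biogenesis had 2 of 44 separate and lower and a median of 0.00, and translation factors 1 of 28. HAC1, the transcription factor of the unfolded protein response, had 4645, 5054 and 5881 in CTH2 cells and 8123, 8314 and 8913 in vector cells (-0.71, SE 0.19, limma adjusted p = 0.182), separate but with a probe set of shared sequence. The other HAC1 probe sets above the signal filter showed smaller differences, of -0.10, -0.07 and -0.16. Besides HAC1, 1 of the 22 tested secretory folding genes, SEC63 at 0.75, was separate.

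For metals other than iron, no gene of the zinc and copper lists was called or was separate and higher. The zinc list had 1 of 13 separate, ADH4, at -0.44. The copper list had 2 of 12 separate and lower, 16.7% against 6.99% of all tested genes. They were FRE1 and the mitochondrial copper chaperone COX17, which had 140, 149 and 131 in CTH2 cells and 204, 360 and 264 in vector cells (-0.94, SE 0.41, limma adjusted p = 0.499). CTR1, the copper transporter, at 0.43 overlapped between the groups.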

How the data were processed

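Biotin-labelled RNA was hybridised to Affymetrix Yeast Genome S98 arrays. The authors deposited 1 intensity per probe set and array, on a linear scale, computed with MAS5 as the submitters' processing notes name it; the sources used here give no version. The 9335 probe sets include 6504 that the platform annotation gives 1 gene, covering 5656 genes of RefSeq assembly R64; 328 name several and 2443 none. Signals were floored at the 10th percentile (43.2) and log2-transformed, the probe set with the highest mean stood for its gene, and the 4537 genes whose mean exceeded the 25th percentile (98.4) were tested. The test was limma 3.58.1 in R 4.3.3, with lmFit and a trended eBayes over the 9 arrays and no covariates, with Benjamini-Hochberg adjustment. The procedure was also run on simulated data, with noise drawn independently for each gene and array. Such data hold no effect shared by the genes of an array, and the outcome is not reported here. Arrays carry no read depth, and their number limits the precision.

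The comparison and the 58 gene lists were chosen with earlier results of these data known, so list counts are descriptions. Named genes were CTH1 and CTH2, every called gene, the next 20 each way by p with separate arrays, up to 4 members of each list by p and any member of an iron list. URA3 and the probe sets of QCR8 were added after the values were seen. Of the iron list members, BOL1 had no probe set of its own, and FRE4, POL3, CYC7, CTT1, CTA1, DIT2, JLP1, JHD2, SSQ1, IBA57, LTO1, HEM3 and CTH1 were too dim to be tested. Alternatives covered the floor, the filter, scaling, probe sets, array weights, the arrays fitted and each replicate left out.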

Additional observations from a re-analysis of the deposited data

How the results depend on the processing

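The main setting called 13 genes, 5 higher and 8 lower. A floor at the 25th percentile left 1 (1 higher, 0 lower), with 470 genes at an unadjusted limma p under 0.05 against 424, and no filter on dim genes left 2 (1 and 1). Median scaling gave 19 (5 higher, 14 lower) and quantile normalization 12 (6 and 6). Fitting the CTH2 and vector arrays alone gave 22 (9 and 13), and array weights gave 72 (30 and 42). Leaving out each replicate in turn gave 1 to 26 calls, 1 to 9 of them higher and 0 to 17 lower. Median scaling moved separate genes to 12.9% lower and 4.58% higher, and quantile normalization to 9.45% and 6.41%, against 6.99% and 9.48%. Of the 13 genes called in the main setting, 1 differed between CTH2 and CTH1 cells; over the same 13, called or not against vector, that count was 2 with the higher floor or no filter, 0 with no floor above a signal of 1, where CTH2 itself did not pass the signal filter, 5 with array weights and 1 to 2 with a replicate left out. Why these counts moved was not tested.

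Same-numbered CTH2 and vector arrays did not deviate together (correlations 0.06, -0.24 and -0.13). So few arrays cannot decide whether the numbers pair the samples. A replicate block left 1 call (1 higher, 0 lower). Over the 19 alternatives none of the 246 values of called genes changed sign, and 137 stayed past the threshold while 109 did not. Of 2298 values of 121 other genes named, 66 passed and 31 changed sign without passing, all in 14 genes whose arrays overlapped. Of 58 list medians, 18 changed sign with median scaling and 9 with quantile normalization. The number of arrays limits what can be called, and the least change called was that of PRM4, at -0.96.

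Of those 14, AFT2 was 0.102 with the higher floor and 0.130 with array weights, and YAP5 0.0497 with array weights. Median scaling gave CYB2 -0.0686, CYB5 -0.0638, NTG2 -0.0319 and POL2 -0.103, and quantile normalization gave ARN1 0.0566, CYB2 -0.120, FIT3 0.0703 and POL2 -0.0105. Averaging a gene's probe sets gave YHB1 0.00544. With each replicate left out in turn the differences ran from -0.255 to 0.0910 for AFT2, -0.219 to 0.122 for ARN1, -0.0994 to 0.338 for ATM1, -0.264 to 0.0983 for CHL1, -0.0167 to 0.171 for CYB2, -0.00725 to 0.159 for CYB5, -0.259 to 0.0141 for ERG25, -0.542 to 0.0292 for FIT2, -0.0337 to 0.0460 for POL2, -0.387 to 0.0959 for RAD3, -0.290 to 0.0890 for YAP5 and -0.267 to 0.0272 for YHB1.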
